A study of Mus musculus with 19 samples.

Results

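Late erythroblasts and granulocytes are the ends of the red cell and neutrophil branches of adult blood formation, and their RNA was compared here over 23077 features of a custom mouse array. The comparison used 6 of the 19 arrays of the series, chosen by their sample titles alone. The 3 late erythroblast samples were Ter119+ bone marrow cells of low forward scatter and intermediate CD44, and the 3 granulocyte samples were Gr1+ bone marrow cells. The progenitors of both branches served as background to the comparison: 3 megakaryocyte-erythroid progenitor (MEP) samples, which lack lineage markers and Sca1, carry Kit and are low in CD16/32 and CD34, and 2 granulocyte-macrophage progenitor (GMP) samples, which are high in CD16/32 and CD34. All mice were C57BL/6, aged 8 to 12 weeks, with no treatment or engineered allele named, and total RNA was hybridised on 1 array per sample. The labels do not say whether the replicates came from separate mice or from pools, so the p-values cover only how these samples vary, which may be technical variation.

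Late erythroblasts are the last nucleated stages before the nucleus is expelled. They fill with hemoglobin, lay down the spectrin skeleton under the plasma membrane, and remove their organelles through autophagy and ubiquitin-driven proteolysis. Erythropoietin signalling and the factors GATA1, KLF1 and TAL1 drive this programme. Granulocytes of the bone marrow, mostly neutrophils, load their granules in successive waves. Primary granule proteins come first in promyelocytes, then secondary and tertiary granule proteins, and receptors for chemoattractants and microbial products are acquired last. C/EBP factors and PU.1 drive that branch.

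Levels are given as log2 of the scanner's processed signal minus the 75th percentile of the same array, so 0 is the 75th percentile and each unit is a doubling. They compare the same probe between cell types and do not compare genes with each other. The scale sets each gene against the rest of the RNA of its own sample. The late erythroblast arrays were dim and concentrated: their 75th percentile was 50.1 to 57.9 intensity units, against 361 to 434 on granulocyte arrays, 42.9% to 47.1% of their spots were well above background, against 51.3% to 58.2%, and the 100 brightest probes held at least 37.0% of the signal, against at least 14.4%. Scaling on the spike-in controls instead lowered every difference between late erythroblasts and granulocytes by 4.24, so each direction given below for a gene that was higher in late erythroblasts by less than that amount holds within the RNA of the sample and reverses on the spike-in scale. The lowest level well above background was about 2 units higher on late erythroblast arrays, between -2.60 and -2.54, than on granulocyte arrays, between -4.88 and -4.32. In bulk samples, fewer cells of a type and less RNA per cell cannot be told apart.

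The groups matched their labels by most of their defining markers. All 8 erythroid markers on the array, among them Slc4a1, Alas2, Hba-a1, Epb42, Ermap, Rhag and Klf1, were higher in late erythroblasts, by 4.76 to 9.07 on the log2 scale. Of 10 granulocyte markers, 8 were lower in late erythroblasts (Ltf, Camp, Ngp, Mmp8, Mmp9, S100a8, Cxcr2 and Cd177). S100a9 did not pass the test, and the probe of Csf3r, the G-CSF receptor, went the other way. Each library also held transcripts of the opposite branch. On granulocyte arrays Alas2 averaged 2.97, against -1.85 on MEP arrays, and Hba-a1 averaged 8.28, against 3.22 on MEP arrays. On late erythroblast arrays Ltf averaged 6.54, against 2.29 on MEP arrays, and Camp averaged 8.25, against 4.54. These levels were not particular to late erythroblasts. Stem and multipotent progenitor arrays gave 6.27 for Ltf and 7.44 for Camp, and GMP arrays 5.74 and 7.79. Common myeloid progenitor arrays were lower, at 2.78 and 5.04. The part of such transcripts in the differences below was not tested. The late erythroblast arrays lay on slides 1, 3 and 4 and the granulocyte arrays on slides 2 and 5, so no slide held both groups and no within-slide difference exists. Slide 5 held only granulocyte arrays, so a fit with slide as a fixed block takes up those arrays. Its difference between the groups then rests on 1 granulocyte array, that of slide 2. The median difference in that fit was -0.10, against -0.12 without the block. This fit cannot separate slide from cell type.

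The groups also differed in transcripts linked to the sex of mice, which the labels do not give. The Y-linked gene Ddx3y stood at 2.69, 2.64 and 2.71 on late erythroblast arrays, against -7.18, -7.11 and -6.60 on granulocyte arrays, where it was not well above background. Xist, the noncoding RNA of the inactive X chromosome, stood at -4.83, -4.85 and -4.81 on late erythroblast arrays, where it was not well above background, against -0.49, -0.51 and -0.22 on granulocyte arrays. Ddx3y was well above background on all 16 arrays of the other 6 cell types and Xist on none of them, so sex-linked transcripts separated the granulocyte samples from all others. Sex and cell type cannot be told apart in this comparison. The 448 X-linked genes tested had a median difference of -0.58, beside -0.63 for the 13159 genes tested that were on neither sex chromosome.

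The cells differed in most of what they expressed. Of the 23077 features tested, 19032 (82.5%) passed limma's test at an adjusted p of 0.05, 8928 (38.7%) of them higher and 10104 (43.8%) lower in late erythroblasts. Scaled on the spike-in controls, 727 were higher and 20351 lower, so the split between the directions is relative to the RNA of each sample. A difference of at least 2-fold was found for 67.2% of features, 32.6% higher and 34.5% lower, and one of at least 8-fold for 23.6%, 11.6% higher and 12.1% lower. Arrays of the groups did not overlap for 86.6% of features. The median difference was -0.12, and features between the 25th and 75th percentiles lay from -1.68 to 1.71. Replicates were close: Pearson's r over the 22932 tested features with a value on every array was 0.976 to 0.981 among late erythroblast arrays and 0.994 to 0.996 among granulocyte arrays, against 0.648 to 0.673 between the groups. Against this background a gene list stands out only by its direction and size, not by the number of members that passed the test. Named genes alone were lower in 52.5% and higher in 31.9% of cases, with a median of -0.63. A list of genes near those values is therefore like genes in general. Among named genes, 205 were well above background on every late erythroblast array and on no granulocyte array, and 2027 the other way, with the higher floor of the late erythroblast arrays beside that count.

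To show the genes behind the branches together with their control regions, promoters are printed for 3 genes higher in late erythroblasts and 3 genes lower there. Capitals mark each match, on either strand, of a GATA motif, AGATAA, and of an ETS motif of the kind PU.1 binds, GAGGAA. Those of Alas2, Art4 and Bcl2l1 were chosen to show the GATA motif: Alas2 at chrX:150547167-150547466 on the plus strand, Art4 at chr6:136857551-136857850 on the minus strand and Bcl2l1 at chr2:152828440-152828739 on the minus strand. The others were chosen to show the ETS motif: Acod1 at chr14:103046762-103047061, Ptgs2 at chr1:150099781-150100080 and Il1f9 at chr2:24186226-24186525, all on the plus strand. All were taken from RefSeq, build GRCm38.p6, and run from 250 bases before to 50 bases after the annotated start.
Alas2 promoter: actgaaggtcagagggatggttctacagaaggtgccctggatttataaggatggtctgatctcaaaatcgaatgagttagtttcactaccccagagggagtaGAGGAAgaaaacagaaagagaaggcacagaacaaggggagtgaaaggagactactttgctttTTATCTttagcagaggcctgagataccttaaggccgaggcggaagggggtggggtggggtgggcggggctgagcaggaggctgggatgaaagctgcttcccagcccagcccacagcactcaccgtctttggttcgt
Art4 promoter: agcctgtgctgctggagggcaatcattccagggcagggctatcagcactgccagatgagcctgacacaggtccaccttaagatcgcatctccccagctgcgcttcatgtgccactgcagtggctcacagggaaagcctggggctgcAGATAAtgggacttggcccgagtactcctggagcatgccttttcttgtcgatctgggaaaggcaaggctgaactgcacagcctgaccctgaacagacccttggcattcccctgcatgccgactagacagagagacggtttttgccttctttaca
Bcl2l1 promoter: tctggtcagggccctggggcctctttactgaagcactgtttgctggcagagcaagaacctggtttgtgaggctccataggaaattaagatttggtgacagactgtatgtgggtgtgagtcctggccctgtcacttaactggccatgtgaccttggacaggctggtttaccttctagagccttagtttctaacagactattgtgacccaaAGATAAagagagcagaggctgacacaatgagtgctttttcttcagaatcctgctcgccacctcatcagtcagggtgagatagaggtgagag
Acod1 promoter: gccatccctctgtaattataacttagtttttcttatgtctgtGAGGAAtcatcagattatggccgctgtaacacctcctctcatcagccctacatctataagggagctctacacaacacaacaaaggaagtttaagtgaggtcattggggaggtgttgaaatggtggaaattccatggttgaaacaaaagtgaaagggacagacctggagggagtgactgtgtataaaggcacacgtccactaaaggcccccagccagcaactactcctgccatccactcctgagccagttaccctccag
Ptgs2 promoter: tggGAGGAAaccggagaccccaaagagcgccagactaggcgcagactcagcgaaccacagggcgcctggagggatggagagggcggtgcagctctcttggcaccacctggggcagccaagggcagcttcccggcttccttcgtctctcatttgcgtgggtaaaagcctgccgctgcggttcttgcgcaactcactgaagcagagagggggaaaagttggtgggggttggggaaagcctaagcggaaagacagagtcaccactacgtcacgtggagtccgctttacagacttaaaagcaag
Il1f9 promoter: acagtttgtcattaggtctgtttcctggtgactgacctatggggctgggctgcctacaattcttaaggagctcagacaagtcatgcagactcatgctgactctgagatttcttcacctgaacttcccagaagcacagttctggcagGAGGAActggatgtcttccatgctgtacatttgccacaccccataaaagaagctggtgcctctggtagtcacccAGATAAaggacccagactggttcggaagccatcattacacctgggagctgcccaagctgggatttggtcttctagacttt

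The GATA motif began 86 bases before the start in Alas2, where it was read on the other strand, 104 bases before it in Art4 and 41 bases before it in Bcl2l1. The ETS motif began 208, 247 and 104 bases before the start in Acod1, Ptgs2 and Il1f9. The Alas2 window also holds GAGGAA, 148 bases before the start, and the Il1f9 window also holds AGATAA, 30 bases before it. Both motifs were searched on both strands, and matches of different motifs were counted separately even where they shared bases. AGATAA was in 10.2% of 924 promoters of genes at least 8-fold higher in late erythroblasts, 7.77% of 1635 promoters of genes at least 8-fold lower, 7.44% of the 10887 promoters of all genes tested and 11.4% of the 27025 promoters in the table. GAGGAA was in 22.7% of promoters of the genes at least 8-fold higher, 32.8% of those at least 8-fold lower, 27.3% of those of all genes tested and 28.3% of all promoters. The C/EBP motif TTGCNNAA was in 11.47% of promoters of the genes at least 8-fold higher and 10.09% of those at least 8-fold lower, beside 8.96% of those of all genes tested and 10.8% of all promoters. The motif of Kruppel-like factors CNCNCCC was in 78.2% and 83.7%, beside 82.5% and 67.3%. A match is a description of these windows only.

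Transcription factors of the branches were split. Of 18 erythroid factors tested, 12 were higher and 6 lower in late erythroblasts, with a median difference of 3.43, beside 38.7% and 43.8% of all features. Gata1 stood at 7.07, 6.83 and 6.81 in late erythroblasts, against 1.56, 1.68 and 1.64 in granulocytes, a difference of 5.28 ± 0.19 on the log2 scale (SE, limma's adjusted p = 2.95e-12). Klf1, the activator of adult beta globin, stood at 5.42, 4.84 and 4.81 in late erythroblasts, against -1.51, -1.40 and -1.56 in granulocytes, and Tal1 was 108-fold higher. Sox6, a repressor of embryonic globin genes, averaged 3.19 in late erythroblasts, against -5.00 in granulocytes, where it was not well above background, so it was at least 230-fold higher. The factors Gfi1b and Foxo3, a regulator of erythroblast maturation, were higher by 4.99 and 3.85. The 6 that were lower included Myb (-2.66), which keeps progenitors immature, Ikzf1 (-2.07) and Bcl11a (-1.28).

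Of 27 myeloid factors tested, 23 were lower in late erythroblasts and 2 were higher, with a median difference of -4.30. Klf2, which restrains activation of myeloid and lymphoid cells, stood at -0.03, -0.18 and 0.16 in late erythroblasts, against 7.13, 7.08 and 7.20 in granulocytes. The other leading members were Trib1 (-7.07), the pseudokinase that limits C/EBP alpha, and the immediate early factor Egr1 (-6.33). Cebpe, required for secondary granules, stood at 4.34, 4.20 and 4.13 in late erythroblasts, against 8.15, 8.18 and 8.22 in granulocytes, and Cebpb differed by -4.58. Spi1, which encodes PU.1, was uneven among late erythroblasts: it stood at -2.97, 0.40 and -2.70 there, with only the second array well above background, against 1.94, 1.82 and 1.93 in granulocytes. Its difference of -3.66 was -3.05 without the first and -4.73 without the second late erythroblast array. The 2 factors that were higher were Rxra (1.40), whose second probe was not, and Mxd1 (0.55).

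Nearly all genes of globin and heme were higher in late erythroblasts. All 7 globin genes tested were higher in late erythroblasts, with a median difference of 5.68. The adult alpha globin gene Hba-a1 averaged 13.05 in late erythroblasts, against 8.28 in granulocytes, and the adult beta globin genes Hbb-b2 and Hbb-bs were 83.5-fold and 82.5-fold higher. Probes of these near-identical copies may share signal, so their separate values are uncertain. The embryonic genes Hbb-y and Hbb-bh1 were low but well above background in all late erythroblast samples, at 1.24 and 0.70 on average, and were not well above background in granulocytes, which gave at least 60.6-fold and at least 39.8-fold. Of 16 genes of heme synthesis and its transport, 14 were higher in late erythroblasts and 1 was lower, with a median difference of 6.07. Alas2, the rate-limiting enzyme of heme synthesis in red cells, stood at 11.44, 11.05 and 10.93 in late erythroblasts, against 2.98, 3.06 and 2.87 in granulocytes, a difference of 8.17 ± 0.19 (SE, limma's adjusted p = 2.91e-14). Tspo2 and the porphyrin exporter Abcg2 were 487-fold and 151-fold higher, and Fech, which inserts the iron, and the mitochondrial iron carrier Slc25a37 were 118-fold and 117-fold higher. The exception was Flvcr1, a heme exporter, at -2.43 in late erythroblasts, where it was not well above background, against 1.79 in granulocytes, at least 18.3-fold lower.

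Iron genes followed at smaller differences, with 10 of 13 higher, 2 lower and a median of 2.16. The transferrin receptor gene Tfrc was 57.3-fold higher in late erythroblasts and the endosomal iron transporter gene Slc11a2 31.4-fold. A second Slc11a2 probe differed by only 1.65 on the log2 scale. Erfe, the erythroid hormone that lowers hepcidin, averaged -0.93 in late erythroblasts and was not well above background in granulocytes, at least 13.5-fold higher. Ferritin genes were high in both cell types: Fth1 averaged 10.46 in late erythroblasts, against 9.04 in granulocytes, and Ftl1 10.84, against 9.61, though Ftl1 was lower in late erythroblasts after quantile normalization (-0.41). Hfe (-2.40) and Ireb2 (-1.01) were lower in late erythroblasts.

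The membrane gave the largest separation of any list. All 15 genes tested from the membrane skeleton list were higher in late erythroblasts, with a median difference of 8.56, and 13 of them were at least 8-fold higher. Tmcc2 was counted in that list, and whether its protein is part of the skeleton was not tested. Tmcc2 stood at 8.15, 7.69 and 8.59 in late erythroblasts, against -2.04, -1.92 and -1.98 in granulocytes, a difference of 10.12 ± 0.21 (SE, limma's adjusted p = 1.21e-14), or 1114-fold. Slc4a1, the band 3 anion exchanger, stood at 12.21, 11.75 and 11.86 in late erythroblasts, against 3.08, 3.02 and 2.89 in granulocytes. The tropomodulin gene Tmod1 was 450-fold higher. Sptb, the beta chain of erythroid spectrin, was not well above background in either group on its probe. Of 18 blood group and surface genes, 17 were higher, with a median of 7.29. Rhag, Kel and Rhd, which carry the Rh and Kell systems in man, were 537-fold, 494-fold and 382-fold higher, and the erythropoietin receptor gene Epor was 251-fold higher. Only Cd44, on which the late erythroblasts were sorted as intermediate, was lower, by 3.76.

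Genes of organelle clearance and reticulocyte maturation were higher in 21 of 25 cases and lower in 4, with a median of 3.16. Ube2o, the ubiquitin ligase that strips ribosomes from reticulocytes, stood at 10.86, 10.47 and 10.46 in late erythroblasts, against 2.09, 2.16 and 2.08 in granulocytes, a difference of 8.49 ± 0.12 (SE, limma's adjusted p = 9.96e-16). Trim58, a ubiquitin ligase of enucleation, stood at 4.30, 3.52 and 3.72 in late erythroblasts, against -4.11, -4.53 and -5.09 in granulocytes, where 1 array was well above background. The exportin gene Xpo7 was 111-fold higher on its brighter probe, while its other probe differed by only 3.11 on the log2 scale. The mitophagy receptor gene Bnip3l was 14.0-fold higher. Values on the 2 early erythroblast arrays (Ter119+ cells of high forward scatter and high CD44), given without a test, were lower for Xpo7, at 1.62, against 5.88 in late erythroblasts, and for Trim58, at 1.18, against 3.84, while Ube2o stood at 8.05, against 10.60. The 4 lower members were Atg5 (-2.59), Fundc1 (-2.70), Atg7 (-4.00) and Alox15, the lipoxygenase of reticulocyte mitochondria in rabbits, which was at least 30.3-fold lower in late erythroblasts and is also expressed by eosinophils.

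Of 20 red cell enzymes and redox proteins, 17 were higher and 3 lower, with a median of 4.21. Carbonic anhydrase Car2 was 195-fold higher, Bpgm, which makes the allosteric effector of hemoglobin, 113-fold, and the thioredoxin reductase gene Txnrd2 103-fold. The antioxidants Prdx2 and Gpx1 were higher by 6.55 and 3.74. The lower members were G6pdx (-3.52) and Gsr (-3.66), which feed and use NADPH, and Ampd3 (-1.27).

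**Figure D1:**
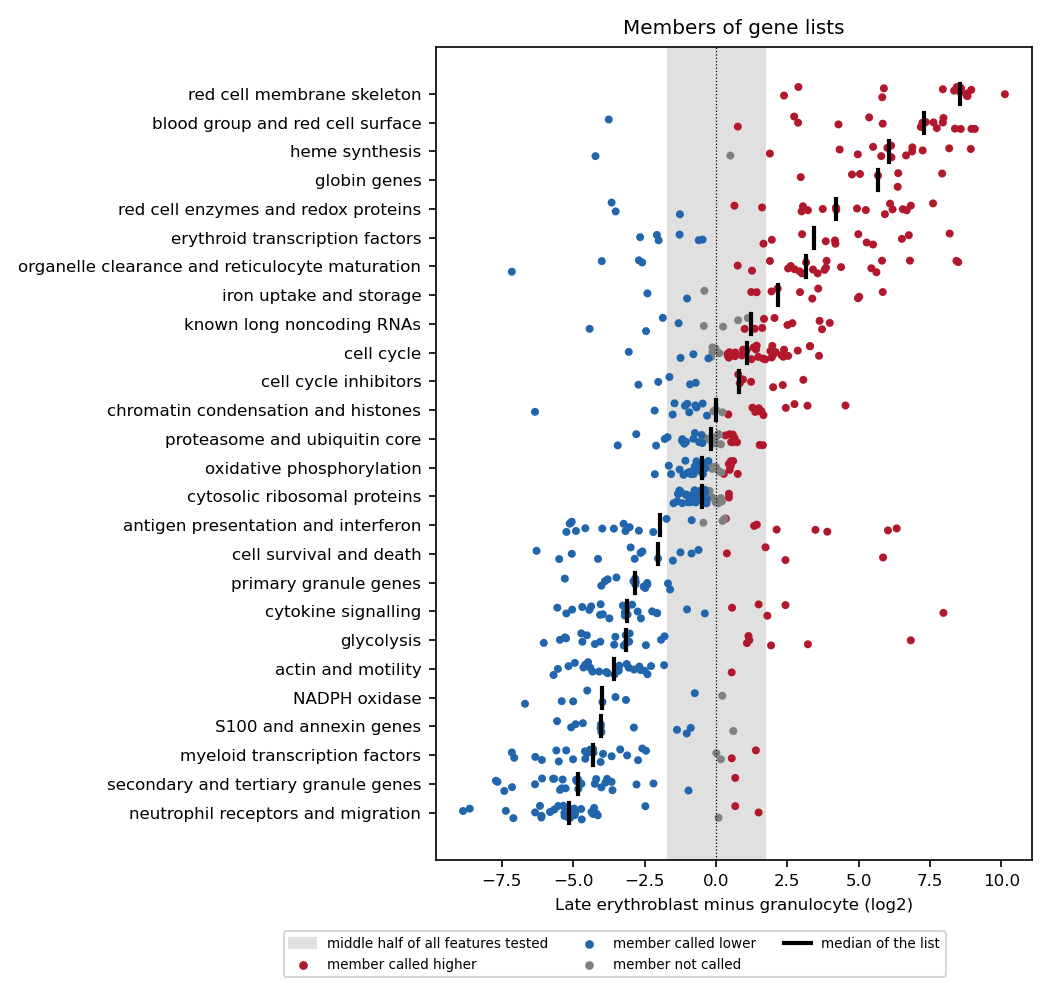
Differences of the members of 26 gene lists, late erythroblast minus granulocyte on the log2 scale. Each point is a gene tested, coloured by whether it was called higher, called lower or not called, the black bar is the list's median and the grey band spans the 25th to 75th percentiles of all features tested. Membrane skeleton genes, with a median of 8.56, stand furthest right, and neutrophil receptors, with a median of -5.15, furthest left.

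Across all named genes, the 10 with the largest positive differences among those above background in both groups were Unc93a2, Tmcc2, Tspan8, 1300017J02Rik, Ccdc92b, Hbq1a, Slc6a20a, Cyp4b1-ps2, Slc2a4 and Art4, with differences of 9.14 to 10.14. Unc93a2 stood at 10.82, 10.83 and 11.56 in late erythroblasts, against 1.03, 0.93 and 0.81 in granulocytes, but its other 2 probes were not well above background in late erythroblasts. Tspan8, a tetraspanin, stood at 5.69, 6.01 and 5.75 in late erythroblasts, against -3.98, -3.86 and -4.14 in granulocytes. Slc2a4, which encodes the insulin-responsive glucose transporter GLUT4, stood at 6.77, 6.46 and 6.52 in late erythroblasts, against -2.71, -2.25 and -2.80 in granulocytes. Art4, the carrier of the Dombrock blood group in man, was 563-fold higher. The globin gene Hbq1a stood at 5.41, 5.22 and 5.01 in late erythroblasts, against -4.27, -4.13 and -3.91 in granulocytes. In each of the 10 genes the lowest late erythroblast array lay more than 8 units above the highest granulocyte array.

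Genes well above background in every late erythroblast sample and in no granulocyte sample gave only lower bounds. Slfn14, a ribosome-associated endonuclease, stood at 5.48, 5.10 and 5.01 in late erythroblasts, against -5.83, -6.02 and -6.33 in granulocytes, at least 941-fold higher (limma's adjusted p = 7.89e-13). The next largest bounds were those of Mageb16 (at least 744-fold), Nhlrc4 (at least 719-fold), Cdkl1 (at least 626-fold), Ypel4 (at least 568-fold), Tnk1 (at least 547-fold), Nrip3 (at least 346-fold) and Mmel1 (at least 320-fold).

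**Figure D2:**
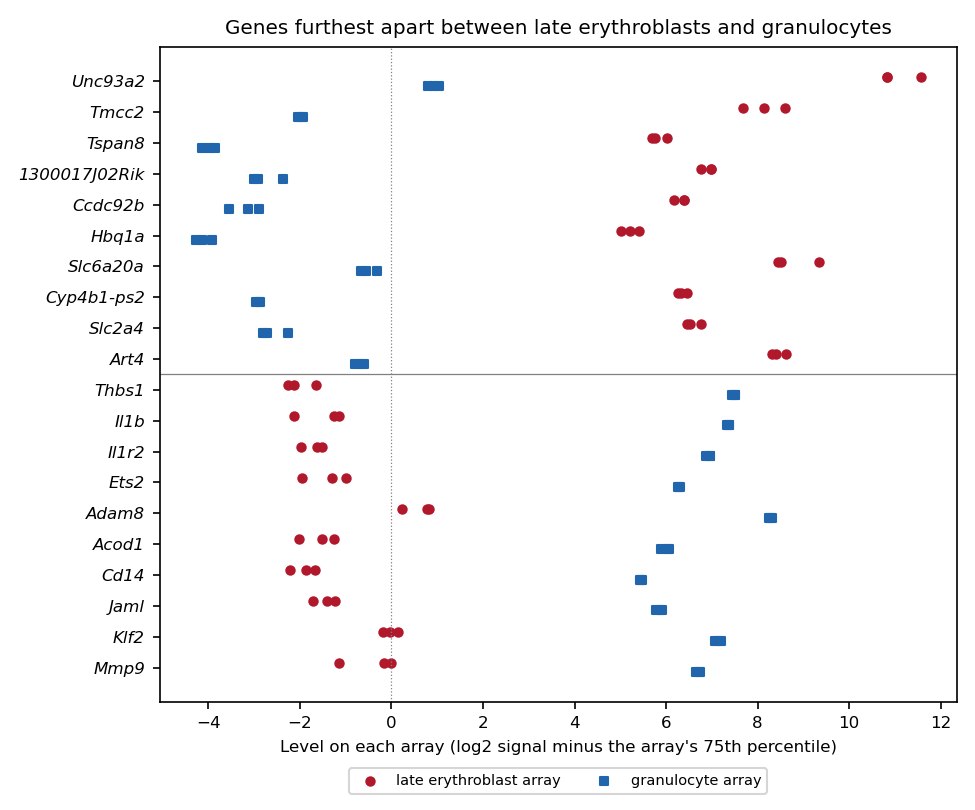
Levels on each of the 6 arrays of the 10 genes with the largest positive and the 10 with the largest negative differences among named genes well above background in both groups. The x axis is log2 signal minus the array's 75th percentile, circles are late erythroblast arrays and squares granulocyte arrays. Unc93a2 leads the upper block with a difference of 10.14 and Thbs1 the lower block with -9.49, and in no gene do the groups overlap.

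Granule genes were lower in late erythroblasts in nearly every case, by amounts that differed between the granule waves. All 15 primary granule genes tested were lower, with a median difference of -2.83, and 28 of 29 secondary and tertiary granule genes were lower, with a median of -4.84. The difference between these medians was not tested. Mpo, myeloperoxidase, stood at 7.84, 7.99 and 7.89 in late erythroblasts, against 9.44, 9.49 and 9.61 in granulocytes, a difference of -1.61 ± 0.35 (SE, limma's adjusted p = 0.000548). Elane, neutrophil elastase, averaged 5.45 in late erythroblasts, against 7.93 in granulocytes. Lyz2 (-5.30) and Mgst2 (-3.89) were among the primary granule genes with large differences.

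Ltf, the lactoferrin of secondary granules, stood at 6.57, 6.27 and 6.76 in late erythroblasts, against 10.14, 10.16 and 10.28 in granulocytes, 12.6-fold lower. The gelatinase Mmp9 of tertiary granules stood at -0.01, -1.15 and -0.16 in late erythroblasts, against 6.66, 6.71 and 6.74 in granulocytes, 142-fold lower, and the protease gene Adam8 was 202-fold lower. Arg2 and the membrane protease gene Mmp25 were not well above background in late erythroblasts and were at least 49.9-fold and at least 44.7-fold lower. The single member that was higher, the integrin gene Itgam (0.67), had 2 other probes that were lower in late erythroblasts. Some neutrophil transcripts were well above background in both groups. The transcripts of S100a9 and S100a8, calprotectin subunits, stood at 10.60, 10.85 and 10.71 and at 8.71, 8.89 and 8.86 in late erythroblasts, against 10.03, 10.04 and 10.26 and 9.77, 9.78 and 9.97 in granulocytes. S100a9 did not pass the test (0.61 ± 0.35, SE, limma's adjusted p = 0.115), and its direction turned after quantile normalization (-0.89). Early erythroblast arrays gave 9.28 for S100a9, MEP arrays 6.71 and common myeloid progenitor arrays 7.135. GMP arrays gave 9.655 and stem and multipotent progenitor arrays 9.32.

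Of 9 NADPH oxidase genes, 8 were lower in late erythroblasts, with a median of -3.98. The membrane subunit gene Cybb stood at -0.17, -1.34 and -0.70 in late erythroblasts, against 4.69, 4.69 and 4.64 in granulocytes. The cytosolic subunit gene Ncf1 was 32.1-fold lower. Of 12 S100 and annexin genes, 11 were lower, led by S100a6 (-5.57), S100a11 (-5.08) and Anxa11 (-4.92).

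Receptors and migration genes of neutrophils had the most negative median of the lists, -5.15, with 32 of 35 lower and 2 higher. Il1b, the cytokine interleukin 1 beta, stood at -2.12, -1.26 and -1.13 in late erythroblasts, against 7.37, 7.33 and 7.38 in granulocytes, a difference of -8.87 ± 0.28 (SE, limma's adjusted p = 6.15e-13). The decoy receptor gene Il1r2 was 396-fold lower and the endotoxin co-receptor gene Cd14 165-fold lower. The formyl peptide receptor gene Fpr1 was 80.9-fold lower, and the chemokine receptor gene Cxcr2 stood at -0.36, 1.93 and -1.36 in late erythroblasts, against 5.02, 5.27 and 5.37 in granulocytes. Its difference of -5.15 was -6.08 without the second and -4.44 without the third late erythroblast array. The 2 higher members were Csf3r and Itgam (0.67). Csf3r stood at 8.81, 9.05 and 9.09 in late erythroblasts, against 7.44, 7.57 and 7.45 in granulocytes, and its probe gave 7.23 on MEP and 7.24 on GMP arrays. The chemokine receptor gene Cxcr4 did not pass the test (0.09).

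Actin and motility genes were lower in 28 of 29 cases, with a median of -3.56. The Src-family kinase gene Lyn was at least 15.6-fold lower and Wipf1, a partner of the Wiskott-Aldrich protein, 46.6-fold lower. Coro1a, an actin-binding protein of leukocytes, averaged 4.60 in late erythroblasts, against 8.93 in granulocytes. The exception was Actb (0.55), which was lower after quantile normalization (-0.84), while the other cytoplasmic actin gene, Actg1, was lower by 3.13.

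The 10 named genes with the largest negative differences among those above background in both groups were Thbs1, Il1b, Il1r2, Ets2, Adam8, Acod1, Cd14, Jaml, Klf2 and Mmp9, from -9.49 to -7.14. Thbs1, thrombospondin, which is best known from platelets, stood at -2.26, -2.12 and -1.66 in late erythroblasts, against 7.43, 7.50 and 7.51 in granulocytes. Acod1, the enzyme that makes itaconate, stood at -2.02, -1.25 and -1.51 in late erythroblasts, against 5.89, 6.06 and 6.04 in granulocytes. Ets2, a transcription factor, and Jaml, an adhesion molecule of neutrophil migration, were 208-fold and 158-fold lower. Among genes not well above background in late erythroblasts, Slfn4 was at least 158-fold lower, standing at -3.39, -4.46 and -2.37 in late erythroblasts, against 4.75, 4.90 and 4.73 in granulocytes. The chemokine gene Cxcl2 and the receptor gene Ccr7 were at least 97.2-fold and at least 97.1-fold lower, followed by Cd83 (at least 89.1-fold), Bst1 (at least 84.8-fold), the cyclooxygenase gene Ptgs2 (at least 65.2-fold), the interleukin gene Il1f9 (at least 55.1-fold) and Ankrd33b (at least 53.0-fold).

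Related genes often divided between the cell types. In 17 of 32 pairs of related genes, the member known from red cells was higher in late erythroblasts and its relative was lower. In 8 pairs both were higher, in 2 both were lower, and in 5 at least 1 was not called. Alas1, the housekeeping relative of Alas2, stood at 3.66, 3.29 and 3.47 in late erythroblasts, against 6.84, 6.82 and 6.83 in granulocytes, a difference of -3.35 beside 8.17 for Alas2; a second, dimmer Alas1 probe did not show this. The tropomodulins Tmod1 and Tmod3 differed by 8.81 and -3.58, the adducins Add2 and Add3 by 7.95 and -3.05, and the Kruppel-like factors Klf1 and Klf2 by 6.51 and -7.15. The repressor genes Gfi1b and Gfi1 differed by 4.99 and -2.58, and the GATA factor genes Gata1 and Gata2 by 5.28 and -3.40. Bcl2l1, which encodes the survival protein BCL-XL, stood at 10.52, 10.38 and 10.45 in late erythroblasts, against 4.61, 4.64 and 4.55 in granulocytes, while Mcl1 stood at 4.85, 4.51 and 4.64, against 6.63, 6.78 and 6.69. The glucose transporter genes Slc2a1 and Slc2a3 were both lower, by 5.25 and 6.03. The pairs were put together for roles known from red cells and with earlier results of these data in view, so the count describes them and no more.

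**Figure D3:**
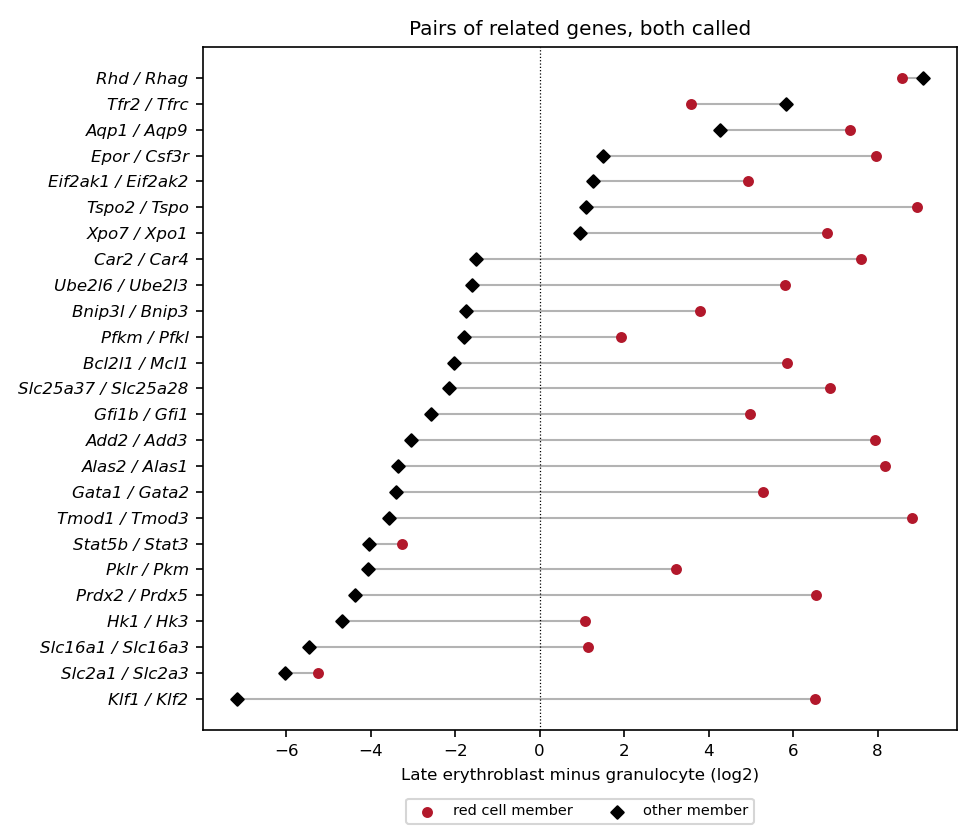
Differences of both members of 25 of the 27 pairs of related genes in which both passed the test, late erythroblast minus granulocyte on the log2 scale. Red circles are the member known from red cells and black diamonds its relative, with a line joining the pair. In 16 of those drawn the line crosses 0 with the red cell member on the right, and Klf1 (6.51) and Klf2 (-7.15) stand among the furthest apart.

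Glycolysis was lower in late erythroblasts in 19 of 25 genes and higher in 6, with a median of -3.16. The largest negative differences were those of the glucose transporter gene Slc2a3 (-6.03), the lactate exporter gene Slc16a3 (-5.47) and the hexokinase gene Hk2 (-5.29). Higher members besides Bpgm included the red cell pyruvate kinase gene Pklr, which was at least 7.87-fold higher, and the hexokinase gene Hk1 (1.08), while their relatives Pkm (-4.05) and Hk3 (-4.68) were lower. Genes of large housekeeping complexes differed by small amounts, with medians no lower than the -0.63 of all named genes. Of all named genes tested, 52.5% were lower and 31.9% higher. Of 36 oxidative phosphorylation genes, 22 were lower and 7 higher, with a median of -0.47, led by Ndufb5 (-2.14), Sdhd (-1.66) and Cox5a (-1.57). Of 40 cytosolic ribosomal protein genes, 30 were lower and 2 higher, with a median of -0.51, led by Rpl32 (-1.49), Rps19 (-1.36) and Rpl10 (-1.33). Of 34 proteasome and ubiquitin genes, 14 were lower and 9 higher, with a median of -0.17. The largest differences were those of the immunoproteasome subunit genes Psmb8 (-3.44), Psmb10 (-2.79) and Psmb9 (-2.10), and the polyubiquitin gene Ubb was higher (1.64).

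Genes of cell division were higher in late erythroblasts in 33 of 43 cases and lower in 4, with a median of 1.07. Mki67, a marker of cycling cells, stood at 9.88, 9.92 and 9.96 in late erythroblasts, against 6.56, 6.65 and 6.67 in granulocytes, 9.81-fold higher, and the cyclin E gene Ccne1 was also 9.81-fold higher. Cenpf stood at -0.72, 2.10 and -0.63 in late erythroblasts, against -3.44, -3.12 and -3.50 in granulocytes, and its difference of 3.61 was 2.69 without the second late erythroblast array. The replication genes Mcm3, Mcm4 and Mcm5 did not pass the test (-0.17, 0.12 and -0.07), and Ccnd2 was lower by 3.06. Inhibitors of the cycle were mixed, with 7 of 12 higher and 5 lower. Cdkn1b, which encodes p27, stood at 7.78, 7.76 and 7.69 in late erythroblasts, against 4.64, 4.69 and 4.71 in granulocytes, and Cdkn2c (2.34) and Rb1, which averaged 4.97, against 2.97, were also higher, while Cdkn1a, which encodes p21, was lower by 2.72.

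Immune genes fell in opposite directions. Of 26 genes of antigen presentation and interferon responses, 15 (57.7%) were lower and 8 (30.8%) higher, with a median of -1.97. These shares were near those of all named genes, of which 52.5% were lower and 31.9% higher, with a median of -0.63. Lower members were led by Ifitm1 (-5.24) and the class II genes H2-Aa (-5.13) and Cd74 (-5.09). The class I gene H2-K1 was lower by 3.58, though its other probe gave only -0.79. The interferon-induced gene Isg15 stood at 9.50, 9.72 and 9.51 in late erythroblasts, against 3.54, 3.63 and 3.49 in granulocytes, and Rsad2 stood at 8.77, 8.86 and 8.67, against 2.36, 2.47 and 2.47. Ifit1 (3.90) and Usp18 (3.49) were higher as well, whereas Ifit3 was not well above background in late erythroblasts and was at least 10.4-fold lower. Survival genes were lower in 13 of 17 cases, with a median of -2.03, led by Tnfaip3 (-6.29), Bcl2a1d (-5.49) and Casp4 (-5.05). Tnfaip3 differed by -5.37 without the first and by -7.01 without the third late erythroblast array.

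Markers of other blood and stromal cells were lower in late erythroblasts more often than higher. So were named genes in general, with 52.5% lower and 31.9% higher. Of 15 B cell markers, 7 were not well above background on any late erythroblast array and all were well above it on some granulocyte array, and their summed linear level, relative to the 75th percentile, was 7.46 to 9.68 in late erythroblasts, against 57.3 to 58.9 in granulocytes. Of the 15, 11 were lower, among them Ms4a1 (at least 33.0-fold lower) and Blnk (-4.41), and 3 were higher, led by Cr2 (1.35). Eosinophil, basophil and mast cell markers were lower in late erythroblasts in 18 of 18 cases, with sums of 35.2 to 42.3, against 1276 to 1452, and Alox15 (above), Hdc (-6.12) and Ear1 (-5.70) in front. Macrophage markers summed to 39.4 to 51.7, against 162 to 167, and were lower in 11 of 13 cases, led by Mertk (at least 4.60-fold), Adgre1 (-3.59) and Vcam1 (-3.59). Stem and progenitor markers were lower on their brightest probes in 14 of 14 cases, led by Ly6a (-4.95), Erg (at least 3.99-fold) and Hoxb4 (-3.88). Well above background on every array were 14 of these markers in granulocytes, but only 5 in late erythroblasts. A marker that met this only in granulocytes could be called lower but not higher, so the count was largely set by the filter. The same limit applies to such members of the other marker lists. T and NK cell markers were divided: 8 of 14 were lower, led by Cd3d (at least 32.5-fold), Thy1 (-3.67) and Cd3g (at least 5.02-fold), and 3 were higher, led by Cd8b1 (4.41) and Cd3e (1.82). Their sums overlapped, at 39.9 to 45.1 in late erythroblasts, against 38.2 to 44.6 in granulocytes. The part of such cells in the differences of other genes was not tested.

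Sums of 3 further lists were higher in late erythroblasts, each through 1 or 2 probes. Monocyte and dendritic cell markers summed to 1242 to 1421, against 356 to 377, through Siglech, whose probes disagreed, and 12 of 13 members were lower, led by Itgax (at least 20.2-fold), Klf4 (-4.29) and Ms4a7 (-3.66). Megakaryocyte and platelet markers summed to 843 to 890, against 215 to 227, through Pdzk1ip1 (8.70), with 12 of 18 lower and 4 higher. Among the lower were Thbs1 (-9.49), the integrin gene Itgb3 (-6.08) and Ppbp (at least 9.64-fold). Endothelial and stromal markers summed to 97.9 to 168, against 25.6 to 28.0, through single probes of Kdr and Lepr. Of 8 tested, 4 (50%) were lower and 3 (37.5%) higher, with a median of -0.14, beside 52.5% and 31.9% of all named genes. The lower members were led by Col1a1 (at least 6.21-fold), Sparc (-2.92) and Cxcl12 (-2.68). Their defining genes Cdh5, Tek, Emcn, Col3a1 and Pdgfra were not well above background in either group. Of the genes used to sort the populations, the 7 on the array were lower in late erythroblasts on their brightest probes, led by Fcgr3 (-4.98), Ly6a (-4.95) and Fcgr2b (-4.30). The probes of Cd34 disagreed: the brighter one differed by -2.09 and the other, also well above background on every array, by 2.56.

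The array was made to measure long noncoding RNAs, and these leaned the other way from genes. Named genes were called higher in late erythroblasts in 31.9% and lower in 52.5% of 13611 cases, with a median difference of -0.63. Intergenic noncoding regions of the catalogue array were called higher in 62.9% and lower in 15.5% of 2821 cases, with a median of 1.50. Custom features, which the study designed from its own RNA sequencing of blood cells, were called higher in 51.9% and lower in 25.9% of 882 cases, with a median of 0.86. On the spike-in scale 110 regions were higher and 2278 lower, and 59 custom features were higher and 708 lower, so the lean is relative to the genes of the same arrays. Since the study chose the custom features on related cells, their share is not independent evidence of a direction.

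The lean of regions held at each level. Among features with a mean level from -2 to 0, 74.5% of 1020 regions were higher and 11.7% lower, beside 32.1% and 54.1% of 3085 genes. From 0 to 2, 71.8% of 510 regions and 29.0% of 3230 genes were higher. Over 6, 81.6% of 38 regions and 59.1% of 553 genes were higher. Custom features were like regions from -2 to 4, with 59.5% to 66.2% higher, but 58.5% of the 41 custom features over 6 were lower. Probes of a region agreed less often than those of a custom feature: where several probes were measured, all had the same sign in 74.2% of 1017 regions, 83.9% of 2278 genes and 95.4% of 520 custom features called at least 2-fold.

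**Figure D4:**
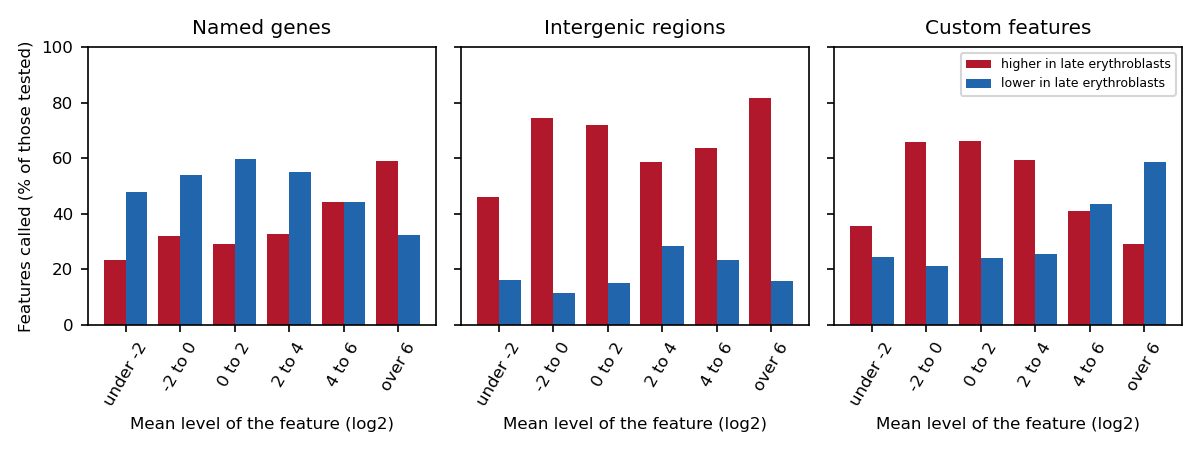
Share of features called higher (red) and lower (blue) in late erythroblasts than in granulocytes, by the mean log2 level of the feature over both groups, for named genes, intergenic regions and custom features. The y axis is the percentage of features tested in each bin. Regions from -2 to 0 were higher in 74.5% and lower in 11.7%, and genes at the same level in 32.1% and 54.1%.

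Custom features measured in both groups reached differences like those of the leading genes. TCONS_00108378 stood at 7.90, 7.97 and 8.15 in late erythroblasts, against -1.93, -2.01 and -2.07 in granulocytes, a difference of 10.01 ± 0.16 (SE, limma's adjusted p = 1.18e-15). TCONS_00336294 (9.27), TCONS_00420872 (8.44) and TCONS_00312140 (7.97) followed. On the negative side TCONS_00374864 stood at -0.60, -1.84 and -0.73 in late erythroblasts, against 6.43, 6.19 and 6.20 in granulocytes, followed by TCONS_00375085 (-6.43), TCONS_00116308 (-5.57) and TCONS_00482794 (-5.28). All measured probes of these 8 features had the same sign. The files give no coordinates for them.

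Among intergenic regions, given in build mm9 with the strand of the probe, the largest positive difference was that of chr12:32781477-32808567, minus strand, at 7.89, 8.03 and 8.18 in late erythroblasts, against -1.79, -1.73 and -2.12 in granulocytes. Its values lay within 0.28 of those of TCONS_00108378 on every array. Next came chr17:24152225-24169870, plus strand, with 9.58, and chr11:95657291-95657772, minus strand, with 8.24. The largest negative difference was that of chr17:29378878-29379589, plus strand, at -1.28, -2.07 and -1.06 in late erythroblasts, against 4.93, 4.77 and 4.52 in granulocytes, but a second probe of that region was higher in late erythroblasts. It was followed by a region on chromosome 18 (-5.03), whose probes also disagreed, and by chr11:35805295-35817263, plus strand (-5.03). Of 18 known long noncoding RNAs tested, 10 were higher and 4 lower, with a median of 1.24. Pvt1, next to Myc, was 15.8-fold higher on its brighter probe, while its other probe, well above background in every sample, averaged -1.94 in late erythroblasts and -1.95 in granulocytes. Lockd, next to Cdkn1b, was 13.1-fold higher and Mirg, of an imprinted cluster, 12.4-fold. The nuclear RNAs Malat1 (2.05) and Neat1 (1.68) were higher too.

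The differences between the mature cells were set against those between MEP and GMP, which share no arrays with them. Between the progenitors 7026 of 21938 features (32%) passed the test, 13.6% higher and 18.5% lower in MEP. Of 879 named genes at least 8-fold higher in late erythroblasts and tested in the progenitors, 41.2% were called higher in MEP and 5.92% lower, beside 13.7% and 23.6% of all 12429 genes tested in both. Of 1937 at least 8-fold lower, 44.7% were called lower in MEP and 11.7% higher. Known genes varied in the size of their difference between the progenitors. Gata1 differed by 4.67 between MEP and GMP and by 5.28 between the mature cells, and Gfi1b by 4.91 and 4.99. Alas2, which was also called higher in MEP, differed by only 0.87 there and by 8.17 between the mature cells. Bpgm, which was not called between the progenitors, differed by 0.32 and 6.83.

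A test of the difference of differences found that 11803 of 15099 features (78.2%) well above background in all 4 groups differed more or less between the mature cells than between the progenitors, 6430 (42.6%) in the positive and 5373 (35.6%) in the negative direction. The largest positive values were those of Tmcc2, Unc93a2, Slc6a20a, Slc4a1 and Ube2o, whose differences between MEP and GMP were 0.22 to 0.73, of which that of Unc93a2 was called. Ube2o averaged 2.93 in MEP and 2.71 in GMP, and its interaction was 8.26 ± 0.18 (SE, limma's adjusted p = 4.32e-14). The largest negative values were those of the immediate early and early response genes Egr1, Nr4a1, Atf3, Ccl4 and Socs3, which were higher in MEP than in GMP and lower in late erythroblasts than in granulocytes. Egr1 stood at -1.66, 0.13 and 0.33 in late erythroblasts, against 5.88, 5.96 and 5.94 in granulocytes, and averaged 6.03 in MEP, against 0.85 in GMP. Without the first late erythroblast array its difference between the mature cells was -5.70, beside -6.33 with it.

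**Figure D5:**
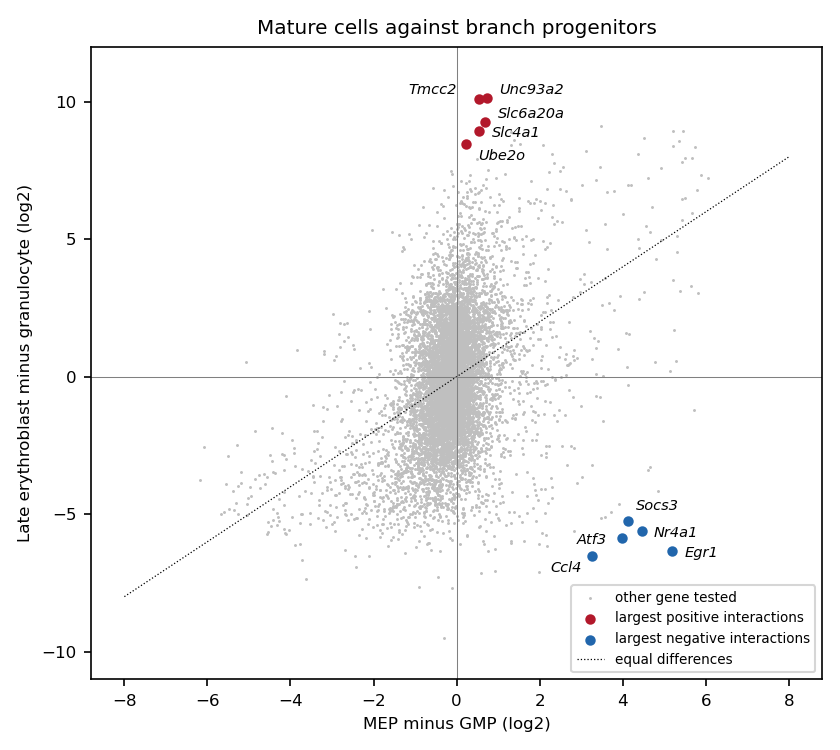
Each point is a named gene well above background in all 4 groups. The x axis is MEP minus GMP and the y axis late erythroblast minus granulocyte, both on the log2 scale, with a dotted line where both are equal. The 5 largest positive interactions, led by Tmcc2, lie near 0 on the x axis, and the 5 largest negative ones, led by Egr1, lie at lower right.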

How the data were processed

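Total RNA of 19 sorted samples of 7 cell types was hybridised on 1-colour Agilent arrays of catalogue and custom probes. Per the file headers, spots were read with Agilent Feature Extraction 11.5.1.1, and the deposited intensity values are its processed signals, background-subtracted by that software and not normalized between arrays. The deposited series table holds background-subtracted intensity, equal to the scanner files' own column to within 4.85e-08 and not normalized between arrays, and was used as an alternative after scaling and a floor of 0.01 of the 75th percentile.

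Here, log2 intensity minus each array's 75th percentile over 61224 non-control spots was computed, spots flagged as outliers were left out, spots of 1 probe were averaged, and the brightest probe stood for a gene. Of 55681 catalogue probes, 27235 were named through RefSeq accessions (GRCm38.p6). Cell type means were fitted over all 19 arrays with limma 3.58.1 in R 4.3.3, with eBayes and Benjamini-Hochberg adjustment over the features tested. A feature was tested if either compared group had it well above background throughout its arrays, and called at an adjusted p under 0.05 where the higher group was above background on every array. A gene dim on all arrays of 1 group has only a bound: the bright group's mean is set against the lowest signal well above background on each dim array, or the probe's own if higher. Exact permutation of 3 against 3 arrays cannot give a p below 0.1. The fit was tested on simulated data.

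Named genes were the 10 largest differences and 8 largest bounds in each direction, members of the gene lists and pairs with the 3 largest per list, the 4 largest custom features, the 3 largest regions and the 5 largest interactions in each direction. Some genes that the rule names are not reported here. The sex-linked genes were chosen after their values were seen. Members and lists were chosen with earlier results of these data known. The calls of at least 8-fold were added after seeing the data. Alternatives were normexp background correction (on median signals, with the mean signals not in the files used here), quantile normalization, a percentile over detected probes, spike-in scaling, the series table, no filter, mean probes, slide and replicate number as blocks, the compared groups alone, and leaving out each array. Replicate numbers did not pair the samples: deviations of same-numbered arrays correlated at -0.015, 0.022 and 0.022. Array number limits the precision.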

Additional observations from a re-analysis of the deposited data

Results flagged for a closer look

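For 10 genes the difference between late erythroblasts and granulocytes was set against that between MEP and GMP, and the test of the difference of differences picked them out as the largest in each direction. The values on the log2 scale were 9.58 for Tmcc2, 9.41 for Unc93a2, 8.59 for Slc6a20a, 8.40 for Slc4a1 and 8.26 for Ube2o. They were -11.51 for Egr1, -10.06 for Nr4a1, -9.85 for Atf3, -9.76 for Ccl4 and -9.37 for Socs3. All 10 kept their direction and passed the test under every alternative run, with the spike-in scale included.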

How the results depend on the processing

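Of 16 counts under the alternatives, 261 of 284 values lay within 1.5 times the main count, and no count left that range when 1 array was left out. Leaving out 1 array gave 18461 to 19131 features called between late erythroblasts and granulocytes. With the replicate number as a block 18985 were called, and the block moved no count by over 1.5 times and changed no other call of a gene named here, although S100a9 passed the test with it (adjusted p = 0.0392). With slide as a random block 19051 were called.

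Spike-in scaling gave 377 named genes higher and 12398 lower in late erythroblasts. Between the progenitors it left 2792 calls, 521 of them lower in MEP, and for the interaction 60 higher and 14061 lower. The 110 higher and 2278 lower regions, the 59 higher and 708 lower custom features, and the 727 higher and 20351 lower features were given above. Without the filter on dim probes 31757 features were called, 21732 of them higher, with 10164 named genes, 3279 regions and 799 custom features higher, and the interaction had 26982 calls, 18427 higher and 8555 lower. Fewer features were lower in MEP after quantile normalization (2627) and with the percentile over detected probes (2419), which also gave 4898 higher.

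On the spike-in scale the medians of 7 lists turned: erythroid factors (-0.81), iron (-2.08), organelle clearance (-1.08), red cell enzymes (-0.029), cell cycle (-3.16), cell cycle inhibitors (-3.43) and long noncoding RNAs (-3.002). So did Actb (-3.69), Bnip3l (-0.43), Ccne1 (-0.94), Cd3e (-2.41), Cdkn1b (-1.18), Cdkn2c (-1.90), Cenpf (-0.63), Cish (-2.44), Cr2 (-2.89), Csf3r (-2.74), Cxcr4 (-4.15), Foxo3 (-0.39), Fth1 (-2.81), Ftl1 (-3.0), Gpx1 (-0.50), H2aj (-1.49), H4c8 (-1.03), Hk1 (-3.15), Ifit1 (-0.34), Itgam (-3.56), Kdr (-1.77), Lepr (-1.47), Lockd (-0.52), Malat1 (-2.19), Mcm4 (-4.12), Mirg (-0.61), Mki67 (-0.94), Mxd1 (-3.69), Neat1 (-2.56), Pim1 (-1.80), Pklr (-1.02), Pvt1 (-0.25), Rb1 (-2.24), Rxra (-2.84), S100a9 (-3.63), Siglech (-1.86), Ubb (-2.59) and Usp18 (-0.75). The scaling itself lowers each difference by 4.24. Quantile normalization turned Actb (-0.84), Ftl1 (-0.41) and S100a9 (-0.89), and the mean of all probes turned Itgam (-1.92) and Siglech (-1.37), whose probes disagree. Cd8b1, Erfe, Gata1, Gfi1b, Hba-a1 and Slc11a2 kept their direction but missed the threshold on the spike-in scale. Without the third late erythroblast array Col1a1 differed by -4.60 and Il1f9 by -7.46. The dim late erythroblast arrays limit what can be said of weak genes there.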

Other observations

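Genes of chromatin condensation and histones were divided, with 11 of 25 (44%) higher and 11 (44%) lower in late erythroblasts and a median difference of -0.01. These shares were near the 38.7% higher and 43.8% lower of all features tested. Named genes were higher in 31.9% and lower in 52.5% of cases. Lmna, which encodes the nuclear lamins A and C, was 23.2-fold higher, and the histone genes H4c8 (3.21) and H2aj (2.75) were higher. Padi4, the enzyme that citrullinates histones in neutrophils, was lower by 6.34, and the nucleosome-binding gene Hmgn2 by 2.15. Of 28 genes of cytokine signalling, 23 (82.1%) were lower and 5 (17.9%) higher, with a median of -3.11. The receptor genes Csf2ra (-5.56) and Csf2rb (-5.04) and the inhibitor gene Socs3 (-5.24) were lower. Besides Epor and Csf3r, the higher members were the STAT5 targets Pim1 (2.43) and Cish (1.80) and the kinase gene Jak2 (0.56).

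The custom probes came in 4 numbered sets, and the labels do not say which set holds which category. All features tested were higher in late erythroblasts in 38.7% and lower in 43.8% of cases, and all custom features in 51.9% and 25.9%. Of 133 features tested in set 1, 47 (35.3%) were higher and 61 (45.9%) lower in late erythroblasts, near the shares of all features. Of 35 in set 2, 25 were higher and 6 lower. Of 269 in set 3, 136 were higher and 69 lower, and of 445 in set 4, 250 were higher and 92 lower. The differences between sets were not tested.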
